A study of Mus musculus with 4 samples.

Results

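The genes described here are the 44 mouse genes that encode the subunits of the proteasome, its immune and testis types, its activators and inhibitor, and its assembly chaperones. They were listed by gene symbol, with earlier results of these data known, and each of the 44 symbols matched 1 of the 55426 genes in the deposited tables. By class they were 7 genes of the α ring, 1 testis-type α gene, 4 structural and 3 catalytic genes of the β ring, 5 immune-type genes, 6 ATPases and 11 other subunits of the regulatory cap, 3 further activators and inhibitors, and 4 chaperones. Poly(A)-selected RNA had been sequenced in 4 libraries of transformed haematopoietic stem and progenitor cells from lineage-negative mouse bone marrow. In 2 libraries the cells carried the MLL-ENL fusion, an oncoprotein that joins part of the histone methyltransferase MLL to the chromatin reader ENL. In the other 2, called MLL-ENL ∆YEATS, the label of the fusion gives ENL residues 372 to 559. Cells of both genotypes were transformed lines grown in IMEM with 15% serum. Which ENL residues the MLL-ENL fusion holds is not stated in the labels, and differences may therefore reflect more than the loss of the YEATS domain. The design text calls the libraries of a genotype technical replicates and does not state how many independently transformed lines were used. The p-values thus cover variation among libraries and not among lines, and the effects of genotype and of line cannot be told apart.

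The proteasome is the barrel-shaped protease that degrades ubiquitin-tagged proteins in the cytosol and nucleus. Its core particle is a stack of rings of α and β subunits, of which some β subunits carry the proteolytic sites, and its regulatory cap holds a ring of ATPases that unfold substrates and push them into the core. In cells of the immune system, and under interferon, the catalytic β subunits Psmb5, Psmb6 and Psmb7 can be replaced by Psmb8, Psmb9 and Psmb10, and the cap by the activator made of Psme1 and Psme2. This immunoproteasome favours peptides that fit MHC class I molecules, and many blood cells express it constitutively. In male germ cells a further α subunit, Psma8, takes the place of Psma7.

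Depth was similar, with 28121268 and 27812855 expected counts for MLL-ENL and 28814798 and 28177480 for ∆YEATS cells, and between 0.500% and 0.577% of the counts in a library came from the 44 genes. Levels are given as CPM, counts relative to library size after TMM scaling, or, to compare genes, as FPKM, which is per length. A gene was called at a Benjamini-Hochberg adjusted p under 0.05 in edgeR's quasi-likelihood test over 13245 genes. The pan-leukocyte marker Ptprc (193 to 276 CPM) and the myeloid genes Spi1 (168 to 244 CPM) and Elane (1773 to 3728 CPM) were present in every library. The progenitor marker Cd34 had 0 counts in both MLL-ENL libraries and 3 in each ∆YEATS library. Kit, a receptor of haematopoietic progenitors, was lower in ∆YEATS cells (50.4 and 66.9 CPM against 2.62 and 3.91 CPM), as was the granule enzyme Mpo (594 and 466 CPM against 59.4 and 62.4 CPM). In bulk RNA, fewer cells of a type and less RNA per cell cannot be told apart.

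Across the 44 genes, the constitutive proteasome showed no call, the testis-type subunit Psma8 appeared in ∆YEATS cells, and 4 of the 5 immune-type genes were lower there. All 44 genes passed the filter on low counts, Psma8 through the ∆YEATS libraries alone. Of them 5 were called (1 higher and 4 lower in ∆YEATS cells), where 16.9% of all genes tested were called, 7.04% higher and 9.84% lower. The other 39 were not called. The median log2 fold change of the 44 genes was 0.0028, and that of all genes was -0.01. The groups of libraries did not overlap in CPM for 22 of the 44 genes, against 64.3% of all genes tested.

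**Figure D1:**
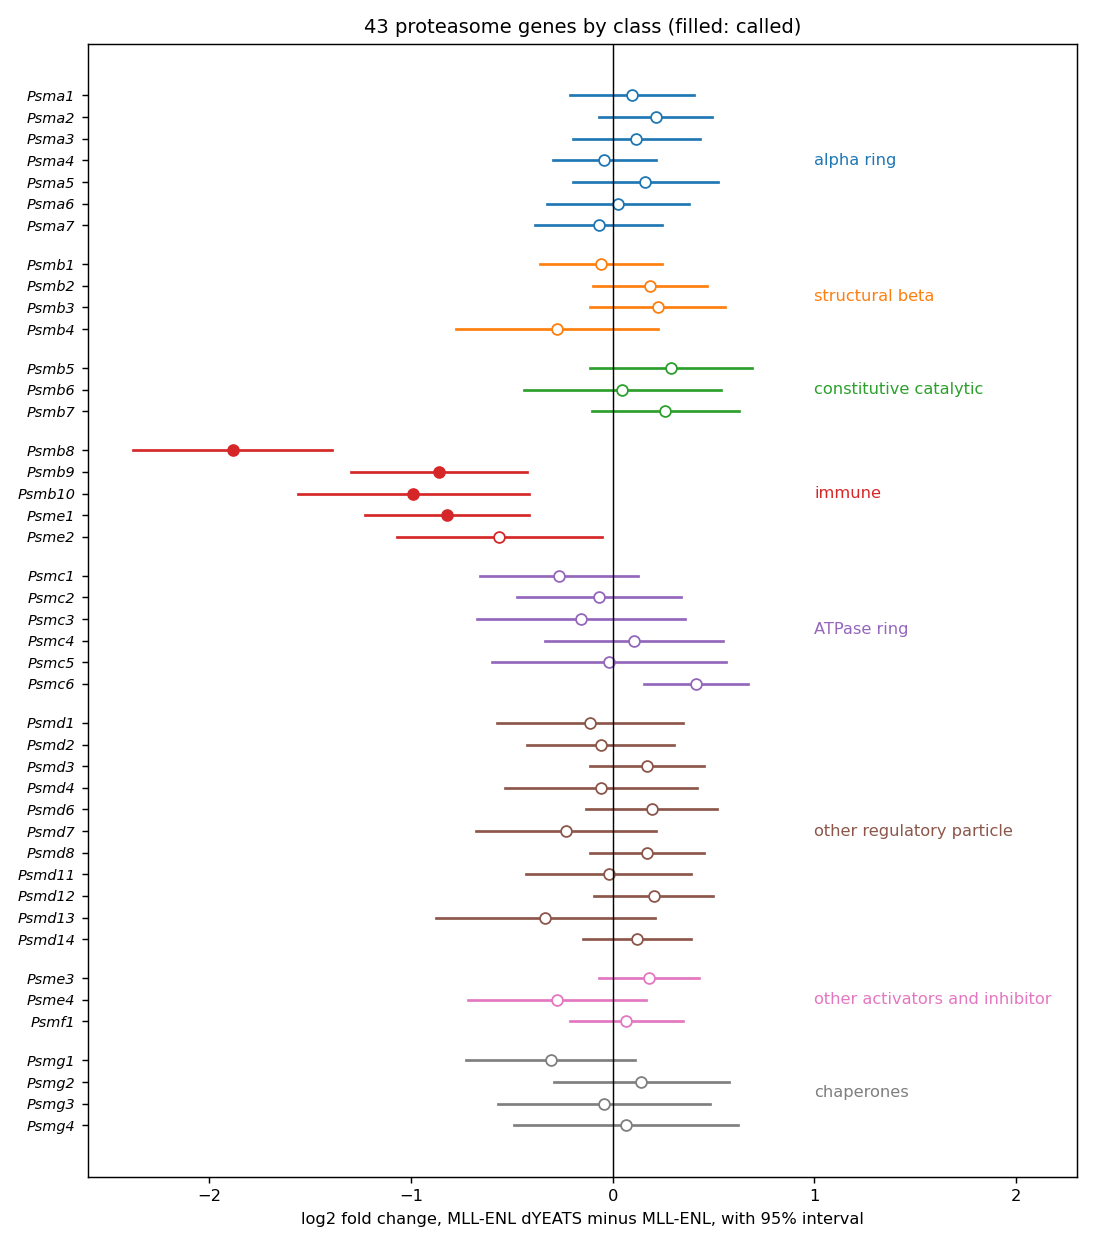
Log2 fold change (∆YEATS minus MLL-ENL, x axis) of 43 proteasome genes by class (y axis), with 95% intervals and called genes filled. Psma8, with 0 counts in both MLL-ENL libraries, is not drawn, and the 4 filled points at -1.88 to -0.82 are Psmb8, Psmb10, Psmb9 and Psme1.

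Psma8, the α subunit of the testis proteasome, had 0 counts in both MLL-ENL libraries but 614 and 576 counts in the ∆YEATS libraries. In CPM these were 20.9 and 20.1, a mean of 20.5 ± 0.574 (SD, n = 2). Both ∆YEATS libraries held the gene at nearly the same level and neither MLL-ENL library held a read of it. Against a floor of 3 counts per library, Psma8 was at least 183-fold higher in ∆YEATS cells. Since it entered the tests through those libraries alone, its call adds nothing to these counts.

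Per length, Psma8 stood at 16.69 and 16.57 FPKM in the ∆YEATS libraries, which ranked it 43rd of the 44 genes there, above Psmb9. Psma7, the α subunit whose place it takes, was at 189.55 and 175.46 FPKM in MLL-ENL and at 182.93 and 182.36 FPKM in ∆YEATS libraries. Psma7 therefore overlapped between the groups, with 127, 108, 111 and 113 CPM and a log2 fold change of -0.07 ± 0.13 (SE; adjusted p = 0.734, edgeR). Of the summed FPKM of both genes, Psma8 made up 8.36% and 8.33% in the ∆YEATS libraries and 0% in the MLL-ENL libraries. The ratio of Psma8 to Psma7 was 0.0911 ± 0.000264 (SD, n = 2) in ∆YEATS libraries, and 0.225 with CPM over exonic length in place of FPKM.

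The genes listed as markers of the male germ line stayed near 0 in both groups. Of 12 male germ cell markers, among them the meiotic genes Sycp1, Sycp3, Dmc1 and Spo11, 4 were at 0 in every library and 0 passed the filter. Their summed level was 0.747 and 0.427 CPM in MLL-ENL libraries and 0.715 and 0.628 CPM in ∆YEATS libraries, so it overlapped between the groups.

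The nearest protein-coding genes on either side of Psma8, on chromosome 18, were expressed in both groups and were not called. Ss18, a subunit of a chromatin remodelling complex 23.2 kb away, had 155 and 164 CPM in MLL-ENL and 176 and 174 CPM in ∆YEATS libraries (log2 fold change 0.14 ± 0.10; adjusted p = 0.41, edgeR). Taf4b, a germ-line and B-cell form of a general transcription factor subunit 20.9 kb away on the other side, had 7.06 and 13.4 CPM against 16.2 and 19.2 CPM (log2 fold change 0.79 ± 0.31; adjusted p = 0.143, edgeR). Both ∆YEATS libraries exceeded both MLL-ENL libraries for each of these 2 genes, as they did for 4256 of all 13245 genes tested. The differences were far smaller than for Psma8. Of the next neighbours, Kctd1 had 14.1 and 15.6 CPM against 10.7 and 10.8 CPM (adjusted p = 0.0648, edgeR), Hrh4 and Zfp521 were at 0 in all libraries and Aqp4 had 1 count in all.

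Psma8 shared its pattern, no count in either MLL-ENL library and counts in both ∆YEATS libraries, with other genes. There were 438 genes of this pattern, itself included, of which 14 reached a mean of 1 CPM in ∆YEATS cells and 4 reached 10 CPM, and Psma8 ranked 4th. The 5 genes nearest to it in mean CPM, the measure of likeness over the 2 ∆YEATS libraries, were Rps4l (6.44 and 7.36 CPM), Mid1 (6.57 and 6.98 CPM), Gm16867 (33.8 and 34.9 CPM), Epha2 (6.68 and 5.27 CPM) and Zfp951 (4.36 and 4.47 CPM).

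The immune-type genes Psmb8, Psmb9 and Psmb10, which encode the exchanged catalytic subunits, and Psme1, which encodes a subunit of the interferon-inducible activator, were each lower in ∆YEATS cells. All 5 genes of the class, Psme2 included, had both ∆YEATS libraries below both MLL-ENL libraries in CPM, as did 32.2% of all genes tested. Their median log2 fold change was -0.86, against -0.01 for all genes tested. To show what lies at their starts, the promoter windows of the 4 called genes are printed with those of the constitutive partners Psmb5 and Psmb6. The sequences were taken from RefSeq on GRCm38.p6, run 5′ to 3′ along the gene from 250 bases before to 30 bases after the RefSeq start, and carry motif matches in capitals.
Psmb8, chr17:34197945-34198224, plus strand: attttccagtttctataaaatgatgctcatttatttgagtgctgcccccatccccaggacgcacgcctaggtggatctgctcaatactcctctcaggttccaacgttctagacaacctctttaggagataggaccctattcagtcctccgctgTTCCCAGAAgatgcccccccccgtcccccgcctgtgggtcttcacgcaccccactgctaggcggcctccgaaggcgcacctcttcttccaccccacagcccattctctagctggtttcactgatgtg
Psmb9, chr17:34187301-34187580, minus strand: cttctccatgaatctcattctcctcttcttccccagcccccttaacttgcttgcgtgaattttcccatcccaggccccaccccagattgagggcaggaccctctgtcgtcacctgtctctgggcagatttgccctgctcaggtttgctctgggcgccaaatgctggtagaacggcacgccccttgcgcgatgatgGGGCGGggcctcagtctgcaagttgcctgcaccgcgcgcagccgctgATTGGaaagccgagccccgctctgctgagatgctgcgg
Psmb10, chr8:105938363-105938642, minus strand: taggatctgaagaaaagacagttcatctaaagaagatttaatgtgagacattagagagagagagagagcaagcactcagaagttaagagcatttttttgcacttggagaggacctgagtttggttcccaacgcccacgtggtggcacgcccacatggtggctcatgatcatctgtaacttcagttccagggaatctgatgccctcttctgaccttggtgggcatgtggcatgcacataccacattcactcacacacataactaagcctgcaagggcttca
Psme1, chr14:55578244-55578523, plus strand: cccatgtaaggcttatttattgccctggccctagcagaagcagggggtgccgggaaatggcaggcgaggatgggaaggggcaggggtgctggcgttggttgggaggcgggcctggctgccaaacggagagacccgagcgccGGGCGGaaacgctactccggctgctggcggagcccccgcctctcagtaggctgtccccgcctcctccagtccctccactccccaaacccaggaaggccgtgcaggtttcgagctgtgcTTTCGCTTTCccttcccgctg
Psmb5, chr14:54617966-54618245, minus strand: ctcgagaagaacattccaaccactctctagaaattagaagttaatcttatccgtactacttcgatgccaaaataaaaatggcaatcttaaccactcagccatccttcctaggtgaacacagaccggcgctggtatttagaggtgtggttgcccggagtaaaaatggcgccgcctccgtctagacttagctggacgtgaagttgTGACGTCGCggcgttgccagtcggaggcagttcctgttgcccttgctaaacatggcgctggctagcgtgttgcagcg
Psmb6, chr11:70525107-70525386, plus strand: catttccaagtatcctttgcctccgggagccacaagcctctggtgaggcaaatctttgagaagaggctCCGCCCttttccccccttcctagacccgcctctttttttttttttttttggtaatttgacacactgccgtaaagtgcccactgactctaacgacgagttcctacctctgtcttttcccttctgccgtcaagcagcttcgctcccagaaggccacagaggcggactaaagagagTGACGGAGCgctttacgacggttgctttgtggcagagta

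The motifs were searched on both strands in the RefSeq windows of 300 bases (250 before to 50 after the start), which were found for 36 of the 44 genes and for 27025 genes in all. The interferon-stimulated response element, searched as GAAA, 2 bases of any kind and GAAA, was present for 3.99% of all genes and for 1 of the 5 immune-type genes, Psme1, where it lay 10 to 19 bases after the start. TTCNNNGAA, a form of the interferon-gamma activated site, was present for 9.55% of all genes and, in this class, for Psmb8, at bases -97 to -89. CCAAT was present for 41.1% of all genes and stood in Psmb9 at -8 to -4, and GGGCGG, a form of the Sp1 box found for 38.2% of all genes, stood in Psmb9, Psme1 and Psme2. The window of Psmb10 held none of these motifs. The antioxidant-type element TGACNNNGC, present for 14.0% of all genes, was in 0 of the 5 immune-type windows and in those of Psmb5 (-47 to -39) and Psmb6 (-9 to -1). In the 31 other genes with a window it was present for 5, the interferon-stimulated element for 3, TTCNNNGAA for 2, CCAAT for 11 and GGGCGG for 17. Matches of different motifs did not overlap in the printed windows. The windows of Psmb8, Psmb9 and Psme1 lie inside the annotated gene, so bases before its annotated start were not searched. A match describes letters in the window and no binding was measured.

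Psmb8, the immune counterpart of Psmb5 (chromosome 17, 34197721 to 34201454 on GRCm38), had 83.5 and 58.4 CPM in MLL-ENL libraries and 19.0 and 19.4 CPM in ∆YEATS libraries. The means were 70.9 ± 17.7 and 19.2 ± 0.281 CPM (SD, n = 2 each), a log2 fold change of -1.88 ± 0.20 (SE; 95% interval -2.38 to -1.39; adjusted p = 0.00344, edgeR). This was the only immune-type gene called in all 14 alternative analyses, in which its log2 fold change ran from -2.12 to -1.61. The annotated antisense transcript at its locus, Gm20496, had at most 2 counts in a library.

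Psmb10, the counterpart of Psmb7 (chromosome 8, 105935735 to 105938444), had 31.8 and 20.3 CPM in MLL-ENL and 13.3 and 13.0 CPM in ∆YEATS libraries. Its means were 26.1 ± 8.09 and 13.1 ± 0.213 CPM (SD, n = 2 each), a log2 fold change of -0.99 ± 0.23 (adjusted p = 0.0414, edgeR). The MLL-ENL libraries differed from each other by more than the lower of them differed from the ∆YEATS libraries. On the FPKM scale the change was smaller, at 36.79 and 25.51 against 22.38 and 23.50 FPKM, with a log2 fold change of -0.40 and no call (adjusted p = 0.253, limma on log2(FPKM + 1)). The transcript length implied by the deposited counts and FPKM was 823 and 806 bases in MLL-ENL against 605 and 562 bases in ∆YEATS libraries, and the part of this in the FPKM result was not tested. Its call was also lost with a minimum of 5 CPM in 2 libraries (adjusted p = 0.0574, edgeR).

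Psmb9, the counterpart of Psmb6 (chromosome 17, 34181987 to 34187764), was the least abundant of the class, with 12.8 and 10.3 CPM in MLL-ENL and 6.78 and 5.97 CPM in ∆YEATS libraries. Its means were 11.6 ± 1.74 and 6.37 ± 0.573 CPM (SD, n = 2 each) and its log2 fold change was -0.86 ± 0.17 (adjusted p = 0.0274, edgeR). The gene overlaps 212 bases of Tap1 on the opposite strand, and whether counting used the strand is not stated. The call was lost on FPKM (adjusted p = 0.0761 to 0.153 in the 3 limma analyses) and without ∆YEATS replicate 1 (0.0633, edgeR) or replicate 2 (0.179, edgeR), with log2 fold changes from -1.01 to -0.70 over all alternatives.

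Psme1 (chromosome 14, 55578123 to 55581529) and Psme2 (chromosome 14, 55587441 to 55591113), which lie 5911 bases apart, encode the partner subunits of the interferon-inducible activator ring. Psme1 had 76.7 and 58.2 CPM in MLL-ENL and 37.6 and 38.7 CPM in ∆YEATS libraries, with means of 67.5 ± 13.1 and 38.2 ± 0.777 (SD, n = 2 each) and a log2 fold change of -0.82 ± 0.16 (adjusted p = 0.0255, edgeR). Psme2 had 41.0 and 27.9 CPM against 23.4 and 23.3 CPM, with a log2 fold change of -0.56 ± 0.20 that was not called (95% interval -1.07 to -0.06; adjusted p = 0.121, edgeR). Both genes had non-overlapping groups in CPM, but in FPKM Psme2 overlapped, at 59.76 and 45.34 against 37.76 and 46.10 FPKM. The call for Psme1 was lost without ∆YEATS replicate 1 (adjusted p = 0.132, edgeR), without replicate 2 (0.104, edgeR) and in limma on unfiltered log2(FPKM + 1) (0.0937), whereas Psme2 was called in 3 alternatives. These were a replicate block (log2 fold change -0.54; adjusted p = 0.0213, edgeR), the fit without MLL-ENL replicate 1 (-0.26; 0.00464) and that without MLL-ENL replicate 2 (-0.81; 3.68e-10). A near-identical gene, Psme2b, had 214 and 177 counts against 148 and 126 counts, so reads of Psme2 may have been split.

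The balance between immune-type and constitutive catalytic subunits, taken as a ratio of FPKM within each library, was lower in ∆YEATS cells for all 3 pairs. Psmb8 stood at 0.501 and 0.480 of Psmb5 in MLL-ENL and at 0.112 and 0.106 in ∆YEATS libraries, a mean ratio 4.49-fold higher in MLL-ENL cells. The ratio of Psmb9 to Psmb6 was 0.0634 and 0.0733 against 0.0405 and 0.0321, or 1.88-fold higher. That of Psmb10 to Psmb7 was 0.284 and 0.231 against 0.150 and 0.156, or 1.68-fold higher. The groups overlapped in none of the 3 ratios, and a two-sided exact permutation test gave p = 0.333 for each, which is the smallest p that 2 libraries against 2 can give. As a share of the summed FPKM of a pair, Psmb8 made up 33.4% and 32.4% in MLL-ENL and 10.1% and 9.61% in ∆YEATS libraries. In MLL-ENL cells the order of the shares was Psmb8, Psmb10 (22.1% and 18.8%) and Psmb9 (5.96% and 6.83%), with no overlap between neighbours. In ∆YEATS cells it was Psmb10 (13.0% and 13.5%), Psmb8 and Psmb9 (3.89% and 3.11%). These levels depend on the length assumed: with CPM over exonic length, Psmb8 stood at 0.142 of Psmb5 and Psmb10 at 0.483 of Psmb7 in MLL-ENL cells, which reverses their order there, and at 0.0316 and 0.206 in ∆YEATS cells.

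**Figure D2:**
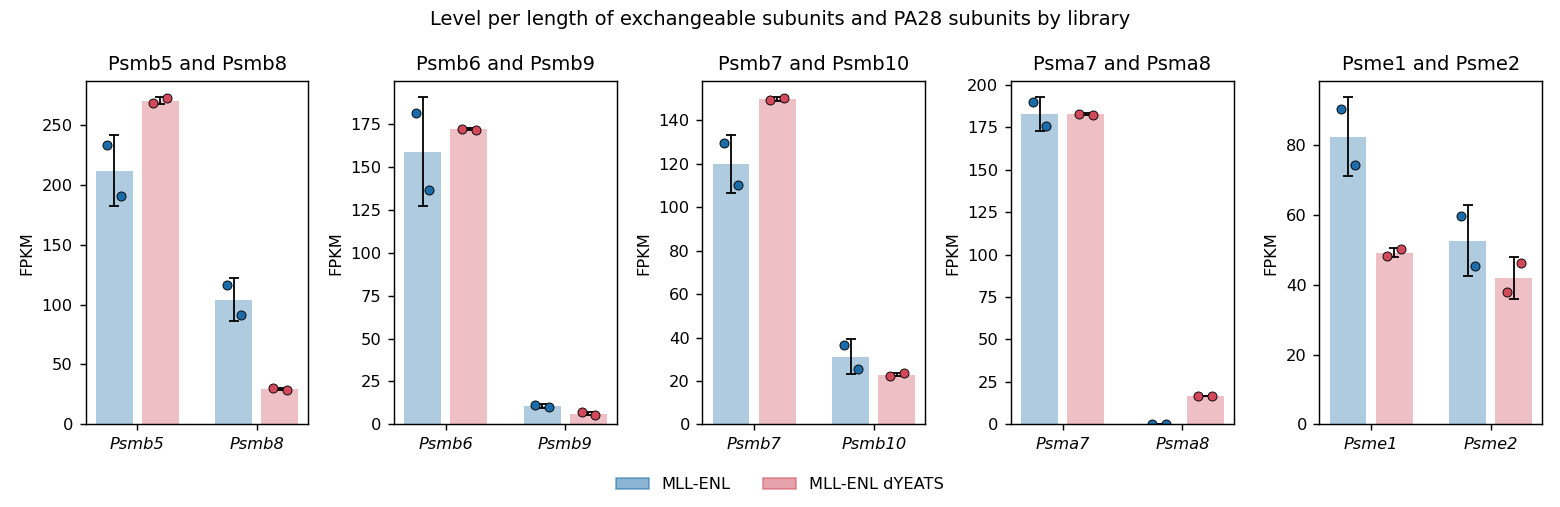
FPKM (y axis, from 0) of the exchangeable catalytic subunits, of Psma7 and Psma8, and of the activator subunits Psme1 and Psme2 (PA28), with points for libraries, bars for means and error bars for SD (n = 2). Psmb8 is lower and Psma8 present in both ∆YEATS (dYEATS) libraries, while Psma7 overlaps between the groups and so does Psme2.

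The constitutive catalytic genes themselves were not called. Psmb5, which encodes the chymotrypsin-like site, had 151 and 114 CPM in MLL-ENL and 160 and 163 CPM in ∆YEATS libraries (log2 fold change 0.29 ± 0.16, 95% interval -0.11 to 0.69; adjusted p = 0.275, edgeR). Psmb7, the trypsin-like site, had 119 and 94.4 CPM against 127 and 129 CPM (0.26 ± 0.15; adjusted p = 0.275, edgeR). For both genes the ∆YEATS libraries lay above both MLL-ENL libraries, as they did for 4256 of all 13245 genes tested. Psmb5 was called once a trend with gene length had been removed (log2 fold change 0.40; adjusted p = 0.0361, edgeR). Psmb6, the caspase-like site, had 97.6 and 67.0 CPM against 85.0 and 85.1 CPM, with the ∆YEATS libraries between the MLL-ENL libraries (0.05 ± 0.19; adjusted p = 0.887, edgeR).

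None of the 38 genes outside the immune and testis types was called, against 16.9% of all genes tested. At an unadjusted p under 0.05 edgeR gave 1 higher, Psmc6, and 0 lower. Over all 13245 genes tested it gave 2040 higher and 2370 lower. DESeq2 and the 3 limma analyses also called 0 of the 38. The log2 fold changes of the 38 genes ran from -0.33 to 0.41 with a median of 0.06, 21 positive and 17 negative, and SE from 0.0989 to 0.230. The widest reach of their 95% intervals was -0.88 to 0.69, so for each of the 38 the interval stayed within a doubling or halving.

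In the α ring, which gates the entry to the core, the extremes were Psma2 and Psma7. Psma2 had 113 and 125 CPM against 136 and 140 CPM (log2 fold change 0.21 ± 0.11; adjusted p = 0.252, edgeR), and the other 6 genes of the ring lay between -0.07 and 0.16. Psma2 shares 8943 bases with AW209491 on the same strand, so its reads may have been split. Among the structural β genes, Psmb3 had 63.5 and 52.8 CPM against 66.2 and 69.5 CPM (0.22 ± 0.13; adjusted p = 0.306, edgeR). Psmb4 had 191 and 130 CPM against 128 and 138 CPM (-0.27 ± 0.20; adjusted p = 0.394, edgeR). In Psmb4 MLL-ENL replicate 1 alone was high, and the ∆YEATS libraries lay on both sides of replicate 2. Psmb1 and Psmb2 lay between these extremes, at -0.06 and 0.18.

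In the ATPase ring of the cap, Psmc6 was the gene closest to a call. It had 129 and 135 CPM in MLL-ENL and 176 in each ∆YEATS library, a log2 fold change of 0.41 ± 0.10 (95% interval 0.16 to 0.67; adjusted p = 0.0501, edgeR). Its 4 libraries fell into separate groups, as for 64.3% of all genes tested, with little spread inside either. Psmc6 was called with DESeq2's size factors in edgeR (adjusted p = 0.0496) and with the length trend removed (0.0277, edgeR). At the other end of the ring, Psmc1 had 346 and 263 CPM against 253 and 253 CPM (-0.27 ± 0.16; adjusted p = 0.296, edgeR). The other 4 ATPases lay from -0.16 to 0.10, and all 4 had the ∆YEATS libraries between the MLL-ENL libraries.

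The 11 other subunits of the cap include the scaffold genes Psmd1 and Psmd2, the ubiquitin receptor Psmd4 and the deubiquitinase Psmd14. Their extremes were Psmd13, a lid subunit with 167 and 108 CPM against 107 and 111 CPM (log2 fold change -0.33 ± 0.22; adjusted p = 0.34, edgeR), and Psmd12, another lid subunit with 112 and 98.0 CPM against 121 and 120 CPM (0.20 ± 0.12; adjusted p = 0.291, edgeR). Psmd13 was again high in MLL-ENL replicate 1 alone. Psmd1, Psmd2 and Psmd4 differed by -0.11, -0.06 and -0.06, and their ∆YEATS libraries lay between the MLL-ENL libraries, while Psmd14 differed by 0.12. Over the 31 genes of the constitutive core and cap, the median level was 129 and 110 FPKM in MLL-ENL and 133 and 138 FPKM in ∆YEATS libraries. The lowest gene was Psma2 (50.8 to 64.1 FPKM) and the highest Psmc1 (292 to 322 FPKM) in every library, although these subunits are assembled in equal numbers. This order depends on the length assumed, which for Psma2 was 2116 to 2320 bases as implied by the deposited counts and FPKM. In CPM, which is not per length, Psma2 (113 to 140) lay above Psmb3 (52.8 to 69.5), and Psmd2 (394 to 503) above Psmc1 (253 to 346).

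Of the remaining activators, Psme3, which forms a nuclear activator ring, had 253 and 258 CPM against 288 and 292 CPM (log2 fold change 0.18 ± 0.10; adjusted p = 0.268, edgeR). Psme4, a large activator with roles in DNA repair and spermatogenesis, had 142 and 197 CPM against 137 and 142 CPM (-0.28 ± 0.18; adjusted p = 0.333, edgeR). Unlike most of the genes, Psme4 was higher in MLL-ENL replicate 2 than in replicate 1. Psmf1, an inhibitor of the core, differed by 0.07. Psmg1 to Psmg4 encode chaperones that assemble the α ring, and their extremes were Psmg1, with 35.6 and 26.8 CPM against 26.1 and 24.3 CPM (-0.31 ± 0.17; adjusted p = 0.266, edgeR), and Psmg2, with 35 and 26.1 CPM against 32.0 and 35.3 CPM (0.14 ± 0.17; adjusted p = 0.61, edgeR). Psmg3 and Psmg4 differed by -0.04 and 0.07.

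**Figure D3:**
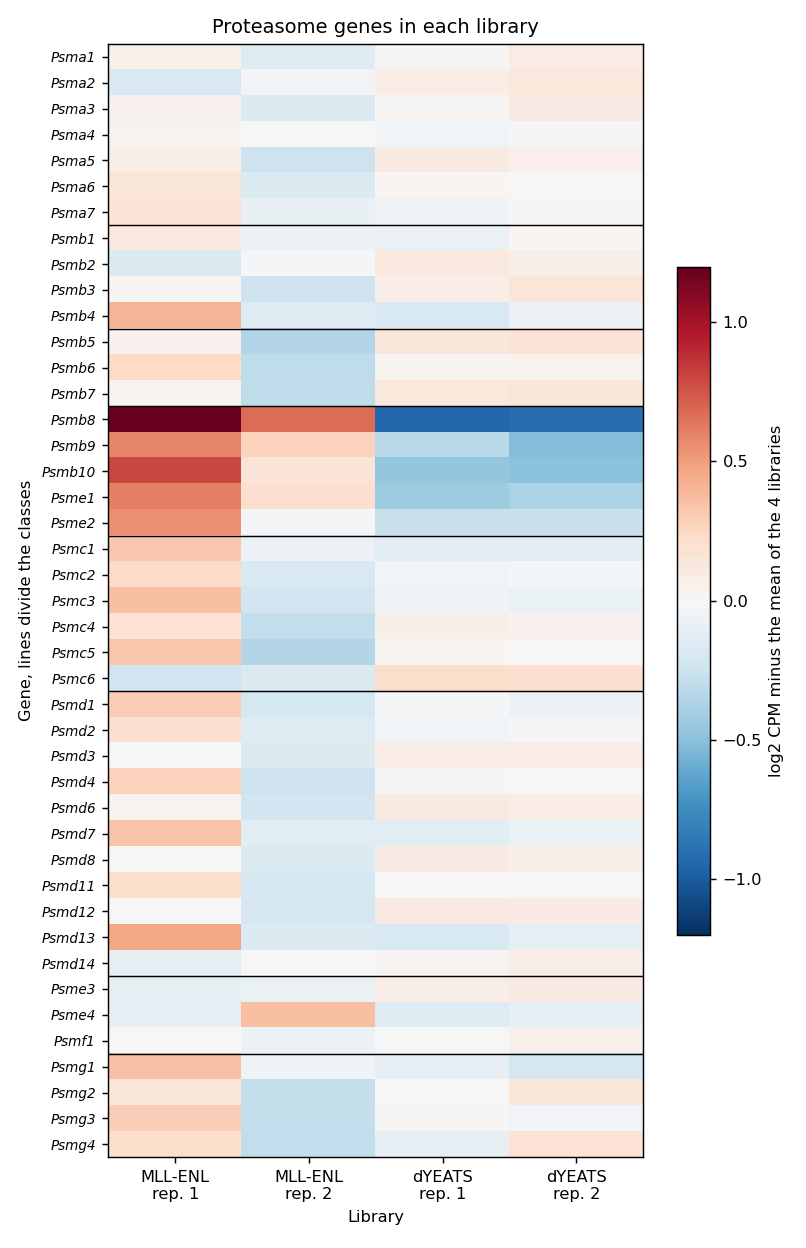
Log2 CPM of 43 proteasome genes (rows, lines divide the classes, Psma8 left out) in each of the 4 libraries (columns) minus the gene's mean over the libraries, shown as colour. The 5 immune-type genes are below their mean in both ∆YEATS (dYEATS) libraries, and most rows are higher in MLL-ENL replicate 1 than in MLL-ENL replicate 2.

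The 2 MLL-ENL libraries differed from each other across the proteasome genes. MLL-ENL replicate 1 was higher than replicate 2 for 37 of the 44 genes, where it was higher for 6365 of all 13245 genes tested, and the median log2 ratio was 0.35 for the proteasome genes and -0.02 for all genes. In the ∆YEATS pair replicate 1 was higher for 19 of the 44 and the median ratio was -0.01. Across 13237 genes, which are not independent replicates, the ratio of the MLL-ENL libraries was related to exonic length with a Spearman rho of -0.391 (0.0648 in the ∆YEATS pair). The median exonic length was 2804 bases for the proteasome genes and 4059 bases for all genes tested. The part of length in the results on proteasome genes was not tested beyond the fit with the length trend removed, in which 4 immune-type genes were called lower, as with all libraries and no correction.

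The direction of some constitutive genes, but not of all, depended on which MLL-ENL library was left out. Without MLL-ENL replicate 1, 27 of the 38 genes outside the immune and testis types were called higher in ∆YEATS cells and 1 lower, and without MLL-ENL replicate 2, 9 were called higher and 18 lower. Of the 38, 19 had opposite signs in these fits and 11 were called in opposite directions. These calls rested on the close ∆YEATS pair, whose spread the lone MLL-ENL library was assumed to share. The genes called higher in both were Psma2, Psmb2, Psmb5, Psmb7, Psmc6, Psmd3, Psmd12 and Psme3, and 0 were called lower in both. The 5 immune-type genes kept a negative log2 fold change in both fits, with a median of -0.63 without replicate 1 and -1.01 without replicate 2.

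**Figure D4:**
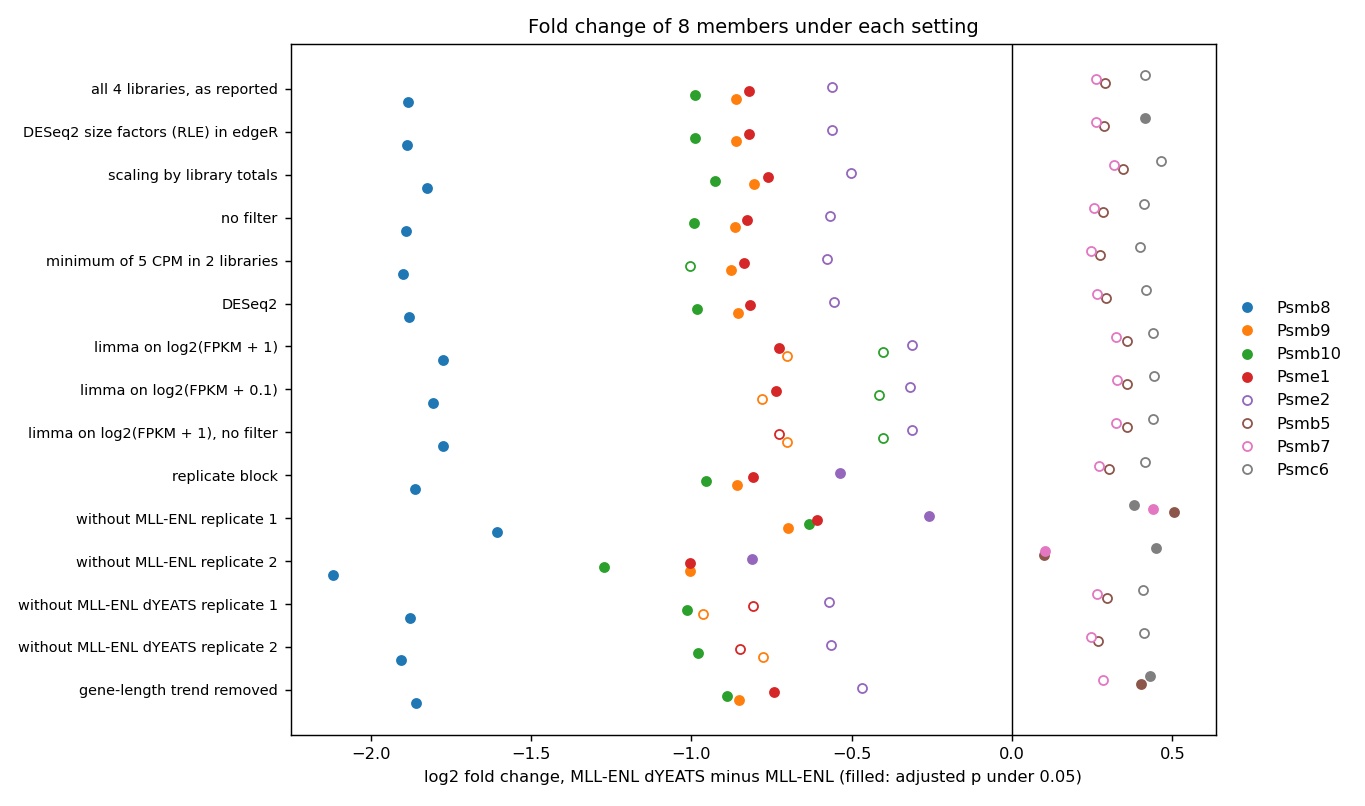
Log2 fold change (x axis) of 8 proteasome genes under each analysis (y axis), filled where the adjusted p was under 0.05. Psmb8 was called throughout, from -2.12 to -1.61, and the other immune-type genes kept their sign while calls for Psmb9, Psmb10 and Psme1 were lost in some.

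Genes that work with the proteasome were read from a list of 36 in the ubiquitin pathway, of which 35 matched and 34 were tested. Of these 1 was called higher and 0 lower, against 7.04% and 9.84% of all genes tested, and the median log2 fold change was 0.02. At an unadjusted p under 0.05 edgeR gave 5 higher and 4 lower (2040 and 2370 of all 13245 genes tested), and DESeq2 called 2 higher and 1 lower. The called gene was Usp14, a deubiquitinase that binds the cap, with 131 and 138 CPM in MLL-ENL and 192 and 195 CPM in ∆YEATS libraries (log2 fold change 0.53 ± 0.10; adjusted p = 0.0248, edgeR). Both ∆YEATS libraries exceeded both MLL-ENL libraries, in the way of Psmc6 and of 4256 of all 13245 genes tested. Its call was lost without either ∆YEATS library (adjusted p = 0.46 without replicate 1 and 0.491 without replicate 2, edgeR) and in limma on unfiltered log2(FPKM + 1) (0.0748). The factor that drives proteasome genes when degradation is impaired, Nfe2l1, had 272 and 247 CPM against 207 and 202 CPM (-0.34 ± 0.11; adjusted p = 0.0891, edgeR). Ddi2, the protease that activates it, had 79.6 and 107 CPM against 135 and 130 CPM (0.50 ± 0.17; adjusted p = 0.101, edgeR). Neither was called, and both were named after their values were seen. The thymus-type catalytic gene Psmb11 had at most 2 counts in a library and was not tested.

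Of 13 genes of MHC class I presentation, which load the peptides that the immunoproteasome makes, 4 were called lower, against 9.84% of all genes tested, and the median log2 fold change was -0.30. None was called higher (0 at an unadjusted p under 0.05, edgeR, and 0 with DESeq2 and limma). Tap2, a subunit of the peptide transporter that lies 2072 bases from Psmb8, had 261 and 223 CPM in MLL-ENL and 126 and 120 CPM in ∆YEATS libraries (log2 fold change -0.97 ± 0.12; adjusted p = 0.00677, edgeR). Tapbp, which holds the transporter to the class I molecule, had 143 and 105 CPM against 66.9 and 68.9 CPM (-0.86 ± 0.17; adjusted p = 0.0263, edgeR). The class I heavy chain H2-K1 had 415 and 362 CPM against 238 and 234 CPM (-0.72 ± 0.12; adjusted p = 0.014, edgeR). In all 3 the ∆YEATS libraries lay below both MLL-ENL libraries, as they did for 32.2% of all genes tested.

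The fourth, Tap1, named after its values were seen, is the other transporter subunit. It lies 495 bases from Psmb8, overlaps Psmb9, and had 35.6 and 30.4 CPM against 22.4 and 20.1 CPM (log2 fold change -0.63 ± 0.14; adjusted p = 0.0339, edgeR). Without ∆YEATS replicate 1 the calls for Tap1, Tapbp and H2-K1 were lost (adjusted p = 0.191, 0.109 and 0.216, edgeR), and without replicate 2 that for Tap2 was lost as well (0.0648, edgeR). B2m, the light chain, was likewise named after its values were seen. It had 78.6 and 89.8 CPM against 63.9 and 70.8 CPM and was not called (adjusted p = 0.146, edgeR).

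Irf1, an interferon-pathway factor that acts on immune-type proteasome genes, and the class I transactivator Nlrc5, both named after their values were seen, were not called. Irf1 had 8.78 and 10.7 CPM in MLL-ENL and 11.2 and 9.21 CPM in ∆YEATS libraries (log2 fold change 0.06 ± 0.18; adjusted p = 0.84, edgeR), so the groups overlapped. Nlrc5 was under 0.5 CPM in every library.

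Markers of other immune cells that use the immunoproteasome were read beside these genes. Of 5 dendritic cell markers, H2-Aa was at 0 in every library and 0 passed the filter, and their summed level was 0.261 and 0.213 CPM in MLL-ENL and 0.341 and 0.489 CPM in ∆YEATS libraries. Of 4 T-cell markers, Cd3e and Cd3g were at 0 in every library and the sum was 3.77 and 3.41 CPM against 0.886 and 0.803 CPM, nearly all of it Lck, which was called lower (log2 fold change -2.14 ± 0.22; adjusted p = 0.0035, edgeR). Among 9 haematopoietic and myeloid markers, Spi1 and Csf1r were called higher and Mpo, Elane and Kit lower, and their summed level was 4981 and 4482 CPM against 2780 and 2822 CPM. The part of these myeloid and progenitor genes in the difference of the immune-type proteasome genes was not tested.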

How the data were processed

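Per the submitters' processing notes, RSEM 1.3.3, STAR 2.7.8a, FastQC 0.11.8 and cutadapt 2.3 were used with mouse build GRCm38. Annotation release, strand setting and the counting of fusion reads are not stated. The authors deposited RSEM expected counts per gene, whole numbers as deposited, and FPKM, which the authors scaled by length and library size. Listed genes were matched by the deposited symbols. Positions and exonic lengths were taken from GENCODE M21 through gene identifiers (55240 matched).

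Counts were filtered with filterByExpr, scaled by TMM and tested with edgeR 4.0.16 (glmQLFit with legacy set to true, glmQLFTest, R 4.3.3) with Benjamini-Hochberg adjustment over 13245 genes. SE was the log2 fold change over the square root of F, with 2 residual and 3.41 prior degrees of freedom. Floors and intervals cover counting error and library spread only.

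Genes given per library were the called members, Psma7, Psma8, the catalytic and immune-type genes, the extremes of each class, and up to 3 called companions per direction and list; others are marked. The members and lists were chosen with earlier results of these data known. Alternatives were 2 scalings, 2 filters, DESeq2 1.42.0, limma 3.58.1 on log2 FPKM with pseudocounts of 1 and 0.1 and unfiltered, a replicate block, removal of a length trend (lowess, span 0.3) and each library left out. Deviations of same-numbered libraries from their group means were barely correlated (-0.0677), which cannot show whether the libraries were prepared in pairs. Some genes of the companion and marker lists are not reported here.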

Additional observations from a re-analysis of the deposited data

How the results depend on the processing

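All 5 immune-type genes kept a negative log2 fold change in the 14 alternatives. The other choices moved counts. With a minimum of 5 CPM, 545 genes were called higher and 805 lower. With limma on log2(FPKM + 1) these were 490 and 645, with a pseudocount of 0.1 they were 454 and 626, and unfiltered 293 and 381. Proteasome genes called lower were then 2, 2 and 1, and MHC class I genes called lower 2, 2 and 1. Proteasome genes called higher were 2 with DESeq2's size factors and 3 with the length trend removed. In the ubiquitin pathway DESeq2 called 2 higher and 1 lower, unfiltered limma 0 higher, and the fit without the length trend 3 higher and 1 lower.

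With a replicate block, although same-numbered deviations were barely correlated (-0.0677), 1435 genes were called higher, and 3 higher and 1 lower in the ubiquitin pathway. Among the 44 genes the block changed the call of Psme2 (-0.54) alone.

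With CPM over exonic length in place of FPKM, the ratio of Psmb8 to Psmb5 was 0.142 in MLL-ENL and 0.0316 in ∆YEATS cells, that of Psmb10 to Psmb7 was 0.483 and 0.206, and that of Psma8 to Psma7 was 0.225 in ∆YEATS cells. The difference in transcript length used was not tested.

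Leaving out each library in turn gave 548 to 4598 genes called higher and 844 to 4501 lower, 1 to 28 proteasome genes higher and 2 to 23 lower, 0 to 14 ubiquitin-pathway genes higher and 0 to 13 lower, and 0 to 1 class I genes higher and 0 to 9 lower. The median log2 fold change ran from -0.14 to 0.17 over the 44 genes and from -1.01 to -0.63 over the immune-type genes. The high counts came without an MLL-ENL library. Constitutive genes with opposite signs without MLL-ENL replicate 1 and without replicate 2 included Psma6 (0.19 and -0.13), Psmb6 (0.34 and -0.20), Psmc2 (0.16 and -0.26), Psmc3 (0.17 and -0.42), Psmc4 (0.36 and -0.11), Psmc5 (0.36 and -0.32), Psmd1 (0.16 and -0.34), Psmd2 (0.12 and -0.22), Psmd4 (0.23 and -0.30), Psmd11 (0.20 and -0.22) and Psmg3 (0.27 and -0.30) (log2 fold changes in that order). The 95% intervals of the constitutive genes, which reached -0.88 and 0.69, give the sizes of change that these 4 libraries leave possible.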
